A study of Mus musculus with 6 samples.

Results

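Peli1, Tab2, Ikbke and 7 further genes encode ubiquitin ligases, adaptors and kinases that act upstream of the transcription factor NF-kappa B. They were measured in activated CD4 T cells of mice that lack miR-155 (miR-155 KO, below KO) and of wild-type (WT) mice. Members were all probe sets, the groups of short probes that report one transcript, whose platform gene symbol was Peli1, Tab2, Ikbke, Map3k7, Traf6, Traf1, Ikbkb, Tnfaip3, Tnip1 or Birc3. This gave 22 of the 22626 probe sets that were not controls, and all 10 genes were among the 9295 genes tested.

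The tested arrays were 3 from miR-155 KO and 3 from WT mice, both of strain C57BL/6, and the series description gives each array its own mouse. CD4 T cells of spleen and lymph nodes were taken with magnetic beads and activated for 3 days, in both genotypes, with 20 U/mL of interleukin 2 and with CD3 and CD28 antibodies at 1 µg/mL each. The KO is the line credited to Thai et al. in the series description. The sources used here give neither age, sex nor the deleted part of the locus. The question was how transcripts differ when T cells cannot make this microRNA.

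Receptors of the T cell, of interleukin 1 and of the TNF family signal to NF-kappa B through chains of ubiquitin. Ligases such as Traf6 build the chains, Tab2 binds them and brings in the kinase encoded by Map3k7 (TAK1), and that kinase activates the IkappaB kinase complex, whose catalytic subunit is encoded by Ikbkb. Brakes such as Tnfaip3 (A20) take the signal down again, and Tnfaip3, Tnip1, Traf1 and Birc3 are themselves known to be induced by NF-kappa B. Peli1, Tab2 and Ikbke have been reported as targets of miR-155, which the T cell induces on activation.

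The mature miRNAs of the deleted gene are shown because their absence defines the KO. A microRNA recognises transcripts mainly through its seed, bases 2 to 8, which is in capitals. The sequences are those of RefSeq, build GRCm38.p6, plus strand, where the 5p arm lies at chr16:84714143-84714165 and the 3p arm at chr16:84714182-84714202.
mmu-miR-155-5p: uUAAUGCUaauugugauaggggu
mmu-miR-155-3p: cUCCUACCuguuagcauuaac

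The values are log2 expression summaries made by the authors with RMA, a method that corrects background and brings arrays to a common distribution. The array medians lay between 6.45 and 6.49, which that step brings about, so they are no separate check that the 6 arrays are comparable. Mir155hg, the host transcript of miR-155, measured 3.51, 3.89 and 4.45 on the KO arrays, against 7.69, 6.59 and 8.21 on the WT arrays, each array on the side of its label. Both replicate 3 arrays carried Xist (12.6 in KO and 12.6 in WT) together with the Y-linked Eif2s3y (10.05 in KO and 10.21 in WT), while replicates 1 had Xist at 13.4 in KO and 13.1 in WT with Eif2s3y at 3.50 in KO and 3.44 in WT. Replicates 2 had Xist at 5.94 in KO and 5.66 in WT with Eif2s3y at 10.41 in KO and 10.51 in WT. These transcripts thus differed between replicates of 1 genotype and matched by replicate number across the genotypes. That the replicate 3 arrays hold RNA of 1 mouse each is therefore not certain, and values without them are given below. Of 9 CD4 T cell markers 7 had a higher mean in KO and 2 had an unadjusted limma p under 0.05, and their summed level, as a log2 value, was 15.08 to 15.26 in KO and 14.76 to 15.15 in WT. The summed levels of B cell markers were 8.80 to 9.38 in KO and 8.69 to 9.60 in WT, and those of macrophage and monocyte markers, 5 of 6 of them higher in KO, 7.75 to 8.21 in KO and 7.53 to 8.02 in WT. No marker of a cell type other than CD4 T cells had an unadjusted limma p under 0.05 among those tested, and the part of cell mixture in the member values was not tested.

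Of the 10 members, 8 had a higher mean in KO, as had 49.2% of all genes tested, and 2 a lower one, with a median log2 difference (KO minus WT) of 0.55, against a median of -0.0036 over all genes tested. The means of Peli1, Tab2, Tnfaip3, Birc3, Traf1 and Ikbke were higher by 0.50 to 0.91, or 1.42-fold to 1.88-fold, and those of Tnip1, Ikbkb, Traf6 and Map3k7 lay between -0.23 and 0.19. None passed limma over the 9295 genes: member adjusted p-values ran between 0.631 and 0.9748, and the whole table held 0 calls at an adjusted p under 0.05. At an unadjusted limma p under 0.05 there were 4 members, all higher in KO, where 3.57% of all genes were past this limit on the higher side, 3.86% on the lower side and 7.43% in either direction. The members were chosen with earlier results of these data known, so their counts beside the shares of all genes are a description and no test. The plain test without moderation gave 0 adjusted calls and 554 unadjusted ones over all genes, against 691 unadjusted ones by limma. By that plain test Peli1 (unadjusted p = 0.0235) and Tab2 (0.0140) were past 0.05. Birc3 (0.0688) and Tnfaip3 (0.120) were not. In bulk RNA a higher value may come from more cells of a type or from more RNA per cell, which cannot be told apart.

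**Figure D1:**
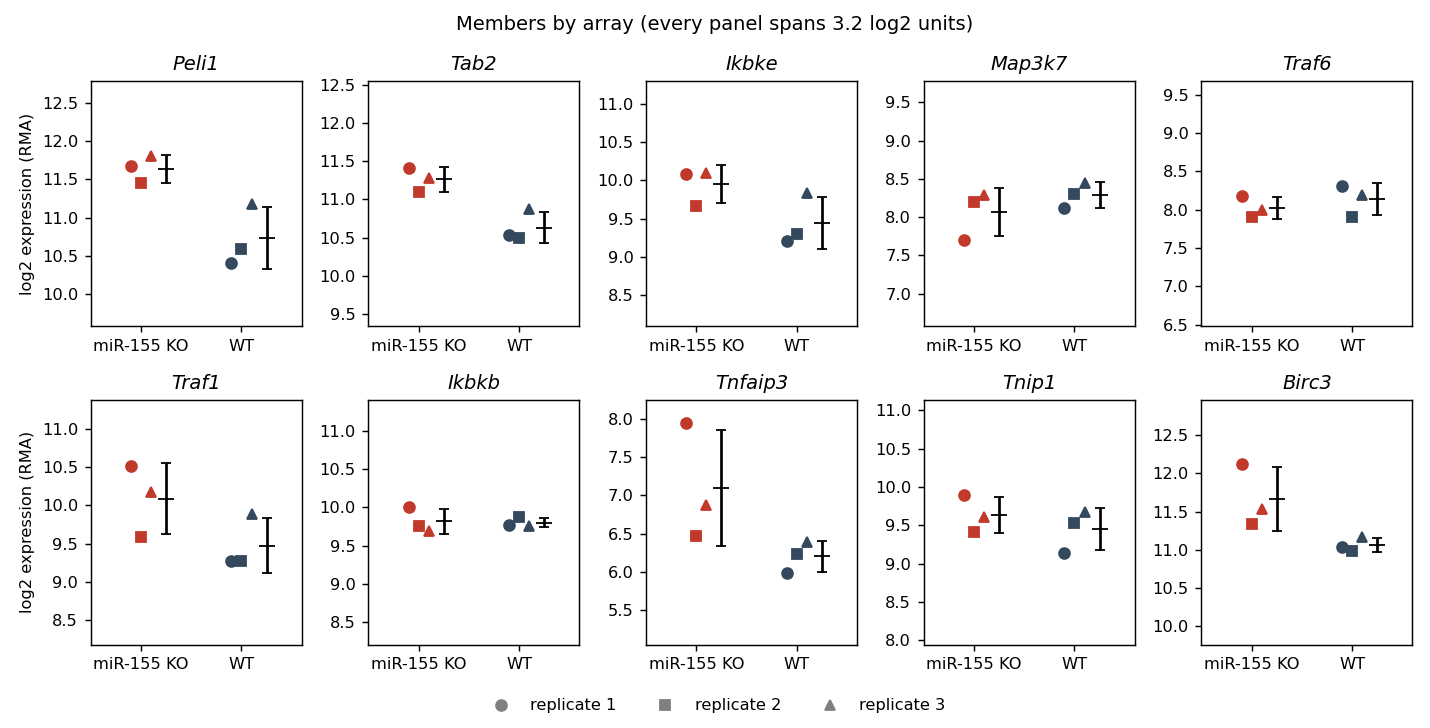
Log2 expression (vertical axis, RMA units) of each member on the 3 miR-155 KO arrays (red, left) and the 3 WT arrays (dark, right), by the probe set with the highest mean; marker shape gives the replicate number, and black bars are the mean and SD. Peli1, Tab2, Tnfaip3 and Birc3 show no overlap between genotypes, and KO replicate 1 stands high in Tnfaip3 (7.94) and Birc3 (12.13).

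Among the ligases, Peli1 showed the widest gap between genotypes of all members. Its product, Pellino 1, ubiquitinates kinases below the interleukin 1 and Toll-like receptors and is known in mouse T cells as a brake that marks c-Rel for degradation. It measured 11.67, 11.45 and 11.81 on the KO arrays, against 10.41, 10.59 and 11.18 on the WT arrays. The genotypes did not overlap, with WT replicate 3 nearest to the KO values, a gap of 0.26 between the lowest KO and the highest WT array. The log2 difference was 0.91 ± 0.22 (SE), 1.88-fold, with a 95% interval of 0.38 to 1.45 (limma unadjusted p = 0.00519, adjusted p = 0.631). Only 105 of the 9295 genes, or 1.13%, had a higher difference. The second Peli1 probe set differed by 0.74 ± 0.30 (SE) and overlapped: WT replicate 3 was at 11.28, above KO replicate 2 at 11.06.

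Tab2, the adaptor that links ubiquitin chains to the TAK1 kinase, measured 11.41, 11.09 and 11.28 on the KO arrays, against 10.53, 10.49 and 10.87 on the WT arrays. Every KO array lay above every WT array. The log2 difference was 0.63 ± 0.15 (SE), 1.55-fold, with a 95% interval of 0.26 to 1.00 (limma unadjusted p = 0.00519, adjusted p = 0.631). Its second probe set gave 10.74, 10.24 and 10.44 in KO, against 9.85, 9.81 and 10.16 in WT, a log2 difference of 0.53 ± 0.17 (SE), again without overlap. The exact permutation p of the highest-mean probe sets of Peli1 and of Tab2 was 0.1, and 3 arrays against 3 allow no smaller value.

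Traf6, the ligase whose ubiquitin chains Tab2 binds, showed no such gap. It measured 8.18, 7.90 and 7.99 in KO, against 8.31, 7.91 and 8.20 in WT, and the genotypes overlapped. The log2 difference was -0.11, with a 95% interval of -0.47 to 0.24, so a difference of up to 0.24 on the higher side lies inside the interval. The other 2 Traf6 probe sets differed by -0.083 and 0.041, the weaker of them at 4.07 in KO and 4.03 in WT, below 4.72, which is the lowest mean among genes tested.

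Traf1 and Birc3 act together at TNF family receptors, Traf1 as an adaptor without a ligase domain and Birc3 as the ligase cIAP2. Birc3 measured 12.13, 11.33 and 11.54 on the KO arrays, against 11.04, 10.98 and 11.16 on the WT arrays. The genotypes did not overlap, and the KO values were spread over 0.80 log2 units, with replicate 1 highest. The log2 difference was 0.60 ± 0.21 (SE), 1.52-fold (limma unadjusted p = 0.0276, adjusted p = 0.631), and it was 0.37 without KO replicate 1. Its second probe set differed by 0.65 ± 0.37 (SE) and overlapped between genotypes. Traf1 measured 10.51, 9.58 and 10.17 in KO, against 9.27, 9.27 and 9.88 in WT. WT replicate 3 lay above KO replicate 2, so the genotypes overlapped. The Traf1 log2 difference was 0.61 ± 0.28 (SE), with a 95% interval of -0.06 to 1.29 (limma unadjusted p = 0.0681, adjusted p = 0.631), and it was 0.40 without KO replicate 1.

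Of the 3 kinases, Ikbke had the only difference beyond 0.25. Ikbke encodes IKK epsilon, a relative of the IkappaB kinases best known for activating interferon regulatory factors. It measured 10.08, 9.66 and 10.10 in KO, against 9.21, 9.29 and 9.84 in WT. Only WT replicate 3 lay among the KO values, above KO replicate 2. The log2 difference was 0.50 ± 0.21 (SE), 1.42-fold, with a 95% interval of -0.0083 to 1.02 (limma unadjusted p = 0.0528, adjusted p = 0.631). With the replicate number fitted as a block its unadjusted limma p was 0.0316 (adjusted p = 0.478).

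Ikbkb, the kinase that phosphorylates IkappaB, was at 10.004, 9.76 and 9.69 in KO, against 9.77, 9.87 and 9.76 in WT. The log2 difference of 0.016 had a 95% interval of -0.29 to 0.32, and the differences of its other 3 probe sets lay between -0.086 and 0.13. Map3k7, the TAK1 gene, was at 7.71, 8.20 and 8.29 in KO, against 8.12, 8.31 and 8.45 in WT, with KO replicate 1 lowest. Its log2 difference was -0.23 with a 95% interval of -0.68 to 0.22, and it was -0.048 without KO replicate 1. The other 4 Map3k7 probe sets differed by -0.16 to 0.026, all with overlap. For both genes the intervals cover differences of either sign.

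Of the brakes, Tnfaip3 encodes A20, an enzyme that removes and replaces ubiquitin on signalling proteins. It measured 7.94, 6.48 and 6.88 on the KO arrays, against 5.99, 6.23 and 6.40 on the WT arrays. The genotypes did not overlap, but the gap was only 0.080 between KO replicate 2 and WT replicate 3, and KO replicate 1 stood more than 1 log2 unit above the next array. The log2 difference was 0.89 ± 0.37 (SE), 1.86-fold, with a 95% interval of 0.015 to 1.77 (limma unadjusted p = 0.0471, adjusted p = 0.631). Without KO replicate 1 it was 0.47, and with the replicate number fitted as a block the unadjusted limma p was 0.0714. Tnip1, whose product ABIN1 binds A20, was at 9.89, 9.42 and 9.60 in KO, against 9.14, 9.53 and 9.67 in WT. Those values overlapped, with a log2 difference of 0.19 and a 95% interval of -0.27 to 0.65. It was 0.063 without KO replicate 1 and 0.037 without WT replicate 1.

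**Figure D2:**
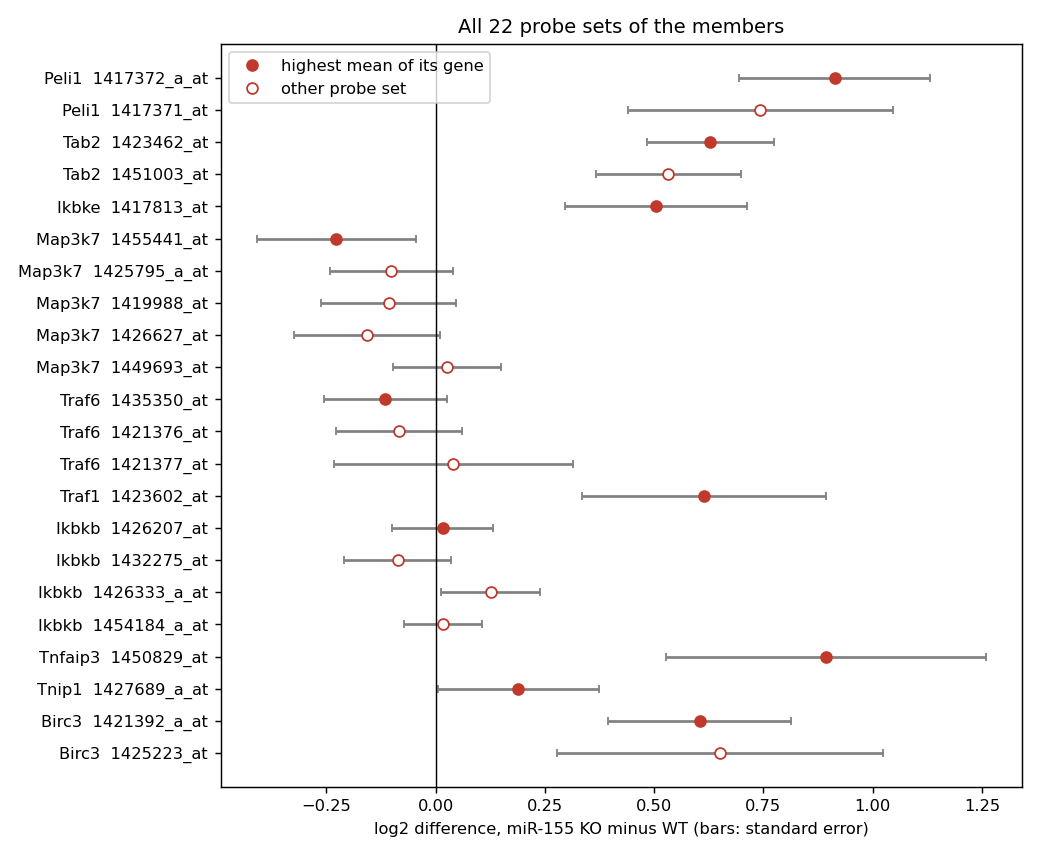
Log2 difference (miR-155 KO minus WT, horizontal axis) with its standard error for each of the 22 member probe sets, filled where the probe set has the highest mean of its gene. Both probe sets of Peli1, Tab2 and Birc3 lie right of zero, while those of Map3k7, Traf6 and Ikbkb lie between -0.23 and 0.13.

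Over probe sets, 15 of 22 had a higher mean in KO, as had 50.4% of all probe sets, and 7 a lower one, with a median log2 difference of 0.083, against 0.0022 over all 22626 probe sets. Map3k7, Traf6 and Ikbkb held 5, 3 and 4 of the 22. At an unadjusted limma p under 0.05 there were 7 member probe sets, all higher in KO, namely 2 each of Peli1 and Tab2 and 1 each of Ikbke, Tnfaip3 and Birc3, where 3.22% of all probe sets were past this limit on the higher side. The only Ikbke probe set had an unadjusted limma p of 0.0492 in this fit over all probe sets. From the same values it had 0.0528 in the fit over genes, not past the limit. In 5 of all 22 member probe sets every KO array lay above every WT array, against 5.89% of all probe sets. By gene, 4 of 10 members had all KO arrays above all WT arrays and none the reverse, where 5.86% of all genes had KO above WT and 6.92% the reverse. Probe sets of 1 gene report the same RNA and are not independent.

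In most of the 10 members, whether higher or lower in KO, the same arrays were the highest or lowest of their genotype. KO replicate 2 was the lowest KO array in 8 of 10 members, WT replicate 3 the highest WT array in 8, and KO replicate 1 the highest KO array in 7. The mean of the 10 members, relative to the mean of the 6 arrays, was 0.43, -0.036 and 0.21 in KO replicates 1, 2 and 3, against -0.34, -0.28 and 0.017 in WT replicates 1, 2 and 3. WT replicate 3 thus lay above KO replicate 2. The first principal component of all genes tested, with 61.9% of the variance, put the 6 arrays in the same order, with scores of -41.3, 13.4 and -14.6 for KO replicates 1, 2 and 3, against 26.1, 23.8 and -7.36 for the WT replicates. Its part in the member differences was not tested.

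**Figure D3:**
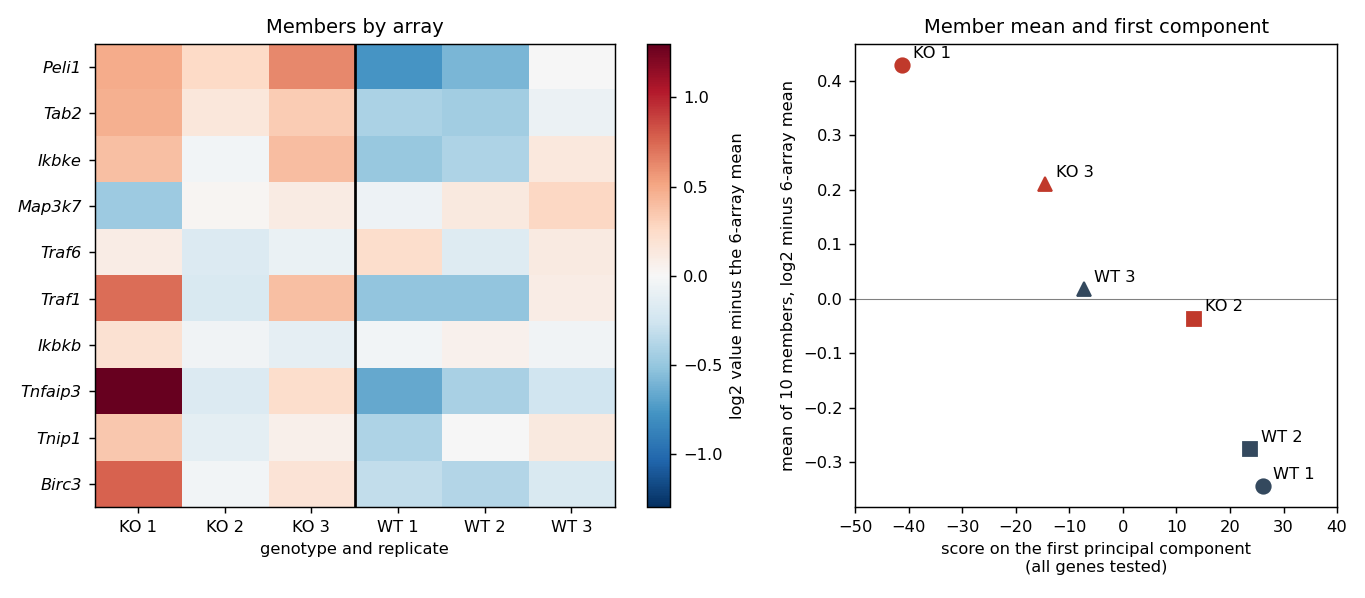
Left, log2 value of each member (rows) on each array (columns, miR-155 KO left of the line, WT right) minus its mean over 6 arrays, on a colour scale that runs between -1.3 and 1.3. Right, the mean of the 10 members per array against the array's score on the first principal component of all genes; the order of the arrays is the same on both axes, with KO replicate 1 at -41.3 and 0.43.

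Peli1 and Tab2 kept an unadjusted limma p under 0.05 with any single array left out, Peli1 with a log2 difference between 0.76 and 1.14 and Tab2 between 0.55 and 0.75. Birc3 did so in 4 of 6 cases, with 0.37 to 0.77, and Tnfaip3, Traf1 and Ikbke in 2 of 6 each, with 0.47 to 1.21, 0.40 to 0.87 and 0.38 to 0.70. Without replicate 3 of both genotypes, 3 members were past that limit, where 4.79% of all genes were past it in either direction: Peli1 at 1.06, Tab2 at 0.74 and Ikbke at 0.62. In that comparison of 2 against 2 arrays, Tnfaip3 differed by 1.10, Traf1 by 0.78 and Birc3 by 0.72, with a median of 0.67 over the members. Without KO replicate 1 the median was 0.39, with 7 of 10 higher, and Peli1, Tab2, Tnfaip3 and Birc3 were past the limit, as were 4.92% of all genes. Without WT replicate 1, and likewise without WT replicate 2, Peli1 and Tab2 alone of the members were, with 2.97% and 3.01% of all genes. Leaving out KO replicate 2, KO replicate 3 or WT replicate 3 gave 6, 3 and 5 members, with 16.6%, 3.15% and 14.4% of all genes.

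**Figure D4:**
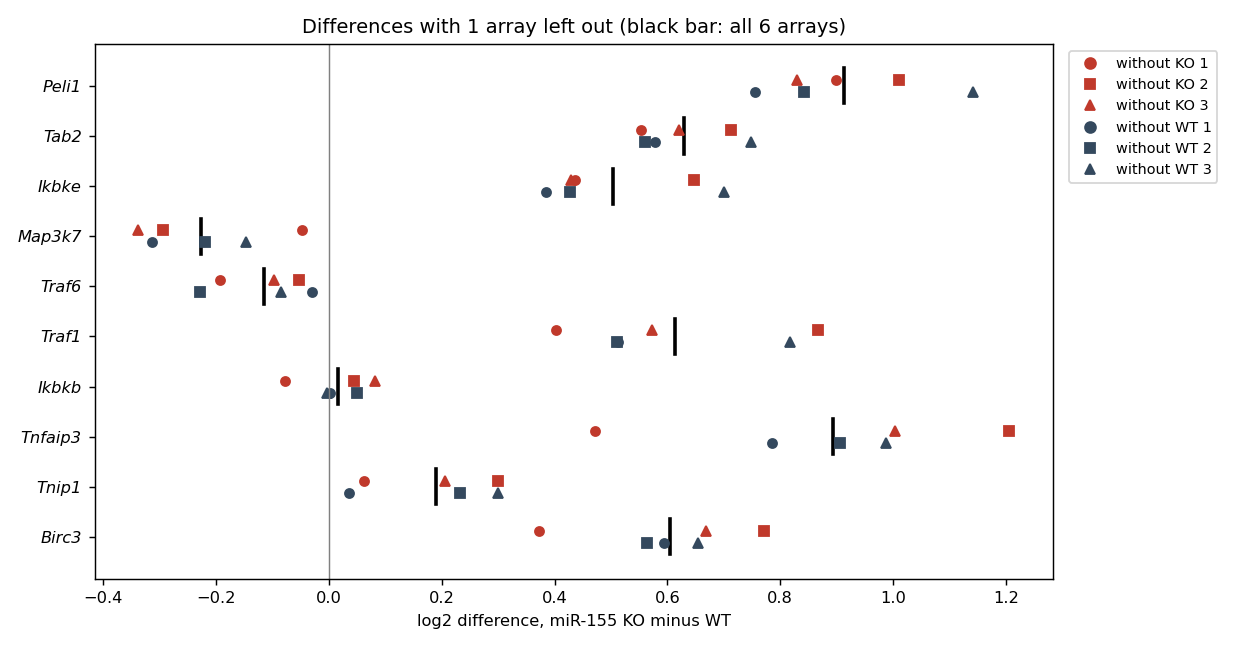
Log2 difference (miR-155 KO minus WT, horizontal axis) of each member with all 6 arrays (black bar) and with 1 array left out (red, a KO array; dark, a WT array; shape, replicate number). Peli1 stays between 0.76 and 1.14, while Tnfaip3 ranges between 0.47 without KO replicate 1 and 1.21 without KO replicate 2.

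Other genes of the same pathway were read from 4 lists. Beside them, 49.2% of all genes tested had a higher mean in KO. Past an unadjusted limma p of 0.05 were 3.57% of all genes on the higher side and 3.86% on the lower. Among 21 tested ligases and adaptors, KO means were higher in 11 and lower in 10, with a median log2 difference of 0.0098. At an unadjusted limma p under 0.05 there was 1 on each side. Birc2, the cIAP1 gene and a close relative of Birc3, was at 10.20, 9.61 and 9.91 in KO, against 9.17, 9.37 and 9.59 in WT, without overlap and with a log2 difference of 0.53 ± 0.19 (SE), or 0.38 without KO replicate 1. Tank, an adaptor of the kinases TBK1 and IKK epsilon, was at 8.99, 9.29 and 9.14 in KO, against 9.33, 9.47 and 9.56 in WT, a log2 difference of -0.31. The unadjusted limma p of Tank was 0.04996, only just under the limit.

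Of 13 tested kinases 11 were higher and 2 lower, with a median of 0.21 (0.12, with 10 of 13 higher, without KO replicate 1), and 0 had an unadjusted limma p under 0.05 on either side. The smallest p was that of Map2k6, a kinase above p38, at 8.96, 7.47 and 7.89 in KO, against 6.68, 7.11 and 7.61 in WT, an overlapping log2 difference of 0.97 that was 0.54 without KO replicate 1. Of 19 tested brakes and deubiquitinases 14 were higher and 5 lower, with a median of 0.11 and 1 gene past an unadjusted limma p of 0.05 on each side. Traip, a ligase that binds TRAF proteins and serves in DNA replication, was at 6.70, 7.03 and 6.89 in KO, against 8.03, 7.71 and 7.32 in WT, without overlap and with a log2 difference of -0.82. Trafd1, on the higher side, overlapped.

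Transcripts known to be induced by NF-kappa B did not share 1 direction. The list leaves out the members Tnfaip3, Tnip1, Traf1 and Birc3, also known to be induced, whose log2 differences were 0.89, 0.19, 0.61 and 0.60. Among 25 tested, the KO mean was higher in 14 and lower in 11, with a median log2 difference of 0.063 (-0.027 without KO replicate 1). Past an unadjusted limma p of 0.05 were 2 on the higher side and 3 on the lower. That was 20% of the list, against 7.43% of all genes. Bcl3, an atypical IkappaB protein, was at 10.12, 10.02 and 10.21 in KO, against 8.59, 9.35 and 9.76 in WT, a log2 difference of 0.88, or 0.56 without WT replicate 1. Ier3 was at 10.43, 9.76 and 10.12 in KO, against 8.81, 9.35 and 9.75 in WT, a log2 difference of 0.80 with a gap of under 0.05 between the genotypes. On the lower side, Lta, the lymphotoxin gene, was at 8.70, 7.62 and 7.82 in KO, against 10.53, 9.18 and 9.53 in WT, a log2 difference of -1.70. Tnf was at 7.41, 7.64 and 7.71 in KO, against 8.43, 7.99 and 8.04 in WT, a log2 difference of -0.57. Il2, also past the limit on the lower side, overlapped between genotypes. Its log2 difference was -1.82, or -1.12 without WT replicate 1. With any single array left out, Lta, Tnf and Traip kept an unadjusted limma p under 0.05, while Birc2, Tank and Ier3 did so in 2 of 6 cases each. Without replicate 3 of both genotypes, the NF-kappa B induced list had a median of -0.039 with 12 of 25 higher, the kinases 0.28 with 12 of 13, the brakes 0.12 with 13 of 19, and the ligases and adaptors 0.0085 with 11 of 21. In that comparison Birc2 (0.64) and Tank (-0.26) were not past the limit, and Lta, Tnf, Bcl3, Ier3 and Traip were. Adjusted limma p-values of all genes named from these 4 lists were 0.631 or higher.

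**Figure D5:**
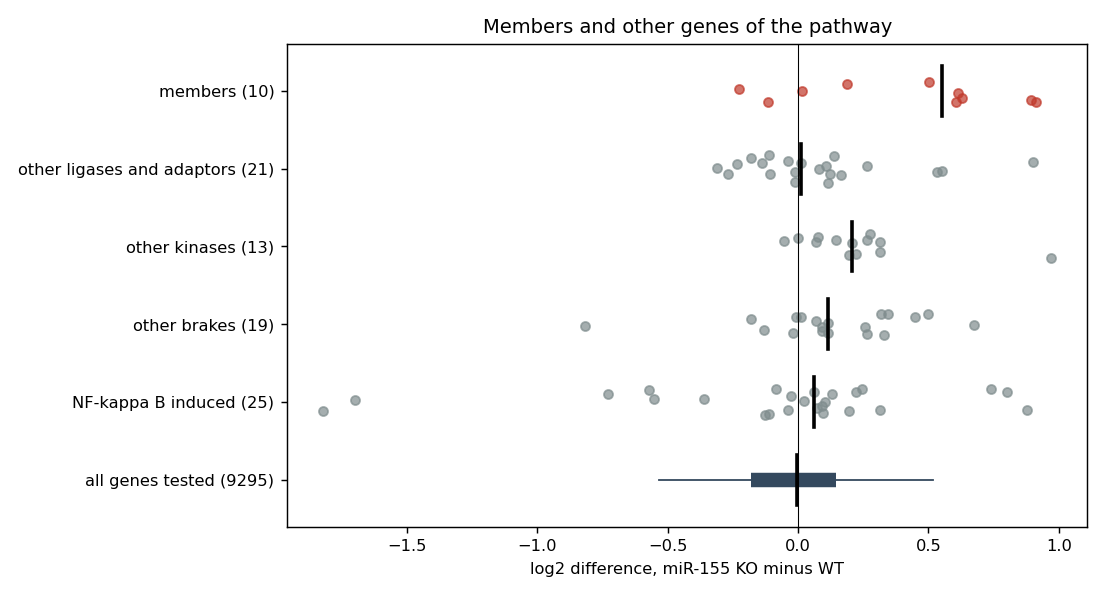
Log2 difference (miR-155 KO minus WT, horizontal axis) of the 10 members (red), of the tested genes of 4 pathway lists (grey), and of all 9295 genes tested (dark bar, 25th to 75th percentile; line, 5th to 95th percentile, -0.53 to 0.52); black bars are medians. The member median is 0.55, and the list medians lie between 0.0098 and 0.21.

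The genes whose pattern over the 6 arrays was most like that of Peli1 were Aopep (Pearson r = 0.997), the perforin gene Prf1 (0.992) and the kinase gene Pim1 (0.990). For Tab2 they were Glipr2 (0.994), Ccdc71l (0.991) and Lat2 (0.991), and for Ikbke Cd7 (0.996), Creb3l2 (0.996) and Krtcap2 (0.995). Such values were common, since 316 genes exceeded r = 0.9 with Peli1, 291 with Tab2 and 567 with Ikbke, and the 6 points share the genotypes and the array order given above. Within the members, Tnfaip3 and Birc3 had r = 0.982 and Peli1 and Tab2 r = 0.968, as descriptions over the same 6 arrays.

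Promoters were examined for the kappa B consensus, the DNA element that NF-kappa B binds, because several members are known to be induced by it. RefSeq windows of build GRCm38.p6 were found for 9 of 10 members, 11 windows in all. The 250 bases before the transcript start that each window gives were read on both strands. That start need not be where the annotated gene begins. The Map3k7 window, chr4:31963857-31964106 (plus strand), lay inside its gene, which begins at 31963492. Among the windows printed below, those of Peli1, Tab2 and Tnip1 overlapped their genes in part. The consensus was matched in 3 windows, of Tnfaip3, Tnip1 and Map3k7, against 7.25% of 32851 windows of the same length. The shorter motif GGGNNTTCC, which can overlap the consensus, was in 4.98% of all windows, and among the members in Tnfaip3 and Tnip1. Printed are the windows of the 2 members that match both motifs and of the 2 members with the smallest p, with bases that match the consensus in capitals. The Peli1 window is chr11:21091074-21091323 (plus strand), Tab2 chr10:7956124-7956373, Tnfaip3 chr10:19015411-19015660 and Tnip1 chr11:54962941-54963190 (all 3 minus strand).
Peli1: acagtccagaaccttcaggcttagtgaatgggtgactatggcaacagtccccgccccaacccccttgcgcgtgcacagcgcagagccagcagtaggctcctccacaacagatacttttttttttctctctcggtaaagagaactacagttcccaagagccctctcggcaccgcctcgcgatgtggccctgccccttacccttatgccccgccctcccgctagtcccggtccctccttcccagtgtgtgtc
Tab2: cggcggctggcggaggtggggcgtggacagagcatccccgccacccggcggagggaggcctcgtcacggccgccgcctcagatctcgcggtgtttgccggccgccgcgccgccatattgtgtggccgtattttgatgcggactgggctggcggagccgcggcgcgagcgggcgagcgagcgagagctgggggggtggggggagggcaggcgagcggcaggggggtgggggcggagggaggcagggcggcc
Tnfaip3: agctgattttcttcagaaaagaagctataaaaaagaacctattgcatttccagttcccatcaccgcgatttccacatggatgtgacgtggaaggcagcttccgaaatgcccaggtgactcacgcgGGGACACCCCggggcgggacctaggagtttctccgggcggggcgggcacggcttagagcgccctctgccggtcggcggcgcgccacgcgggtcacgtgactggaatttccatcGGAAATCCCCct
Tnip1: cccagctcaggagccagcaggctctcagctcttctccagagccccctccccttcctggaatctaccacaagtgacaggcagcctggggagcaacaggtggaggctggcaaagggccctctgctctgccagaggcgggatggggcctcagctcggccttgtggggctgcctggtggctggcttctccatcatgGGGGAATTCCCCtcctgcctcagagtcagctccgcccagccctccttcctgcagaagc

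In Tnfaip3 the matches end 115 and 2 bases before the transcript start, and in Tnip1 3 overlapping matches form 1 stretch that ends 46 bases before it. The Map3k7 match, GGAAATTCCC, ends 82 bases before the start that its window gives, inside the annotated gene. The log2 differences beside these promoters were 0.89 for Tnfaip3, 0.19 for Tnip1 and -0.23 for Map3k7. For the members whose windows held no match they were 0.91 for Peli1, 0.63 for Tab2, 0.61 for Traf1, 0.60 for Birc3, 0.50 for Ikbke and -0.11 for Traf6. A match is a run of letters and no measure of binding, and windows without one may hold sites that these letters do not describe.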

How the data were processed

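Expression was measured on Affymetrix arrays of 3 miR-155 KO and 3 WT samples. Per the submitters' processing notes, RMA and affy produced the authors' deposited log2 values, with no version stated. RMA compresses differences near background. Detection calls were not used here, and with 6 arrays precision is limited.

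The table held 22690 probe sets, of which 64 were controls. GEO's platform annotation gave 1 gene symbol to 20380 of the rest, several to 691 and none to 1555. Of 12393 genes, 12369 were matched by gene number in RefSeq (GRCm38.p6) and 24 were not. Each gene was read by its probe set with the highest mean, and the 25% of genes with the lowest means (3098) were left out. KO minus WT was tested with limma 3.58.1 in R 4.3.3 (lmFit, eBayes, two-sided, Benjamini-Hochberg over 9295 genes), and every probe set was also fitted without a filter. The code was tested on simulated data.

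All members, up to 6 genes per pathway list with an unadjusted p under 0.05 and no overlap between genotypes (otherwise the 1 with the smallest p), and the 3 genes most like Peli1, Tab2 and Ikbke were named. Trafd1 and Il2, past that p limit but with overlap, were named as well. The members and lists were chosen with earlier results of these data known. Alternatives were a replicate block, each array left out, median centring, quantile normalization, other filters, the mean of probe sets, other eBayes settings, array weights (statmod 1.5.0) and an adjusted p under 0.1. Leaving out replicate 3 of both genotypes, and the pathway lists without KO replicate 1, were chosen after seeing the data.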

Additional observations from a re-analysis of the deposited data

How the results depend on the processing

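With 1 array left out, the count of genes at an unadjusted limma p under 0.05 ranged between 276 and 1542 (691 with all arrays). It was 457, 1542 and 293 without KO replicates 1, 2 and 3, and 276, 280 and 1338 without WT replicates 1, 2 and 3. The count of members ranged between 2 and 6 (4 with all arrays). The lower member count of 2 was reached without WT replicate 1 and without WT replicate 2. Without replicate 3 of both genotypes 445 genes were past that limit. The difference of Ikbkb ranged between -0.078 without KO replicate 1 and 0.081 without KO replicate 3, and was -0.0041 without WT replicate 3. Differences moved by over 1.5 times when 1 array was left out for Traf1, Tnfaip3, Birc3, Tnip1, Map3k7, Traf6 and Ikbkb, and not for Peli1, Tab2 and Ikbke.

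Array weights gave 3575 genes at an adjusted limma p under 0.05 and 4711 unadjusted, 50.7% of the table, with weights of 5.55 for KO replicate 3 and 5.04 for WT replicate 2 and at most 0.58 for the other 4 arrays. That fit leans on 1 array per genotype. Under it Traf6 turned to 0.022 and Ikbkb to -0.15, and Peli1, Tab2, Ikbke, Traf1, Birc3 and Tnfaip3 had adjusted p-values between 0.00961 and 0.0185, against 0.631 or higher with equal weights. In every other setting run, single arrays left out included, no gene had an adjusted p under 0.05, and at an adjusted p under 0.1 the count was also 0 with all arrays.

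With the replicate number as a block 918 genes and 4 members were at an unadjusted limma p under 0.05, with Ikbke in place of Tnfaip3. The unadjusted limma p of Ikbke was 0.0316 with the block and 0.0528 without it, and that of Tnfaip3 0.0714 with it and 0.0471 without it (adjusted p = 0.478 with it for both). Deviations of same-numbered arrays correlated at -0.042, 0.64 and 0.40, and KO replicate 1 did not correlate best with its own number. Xist and Eif2s3y matched by number across the genotypes. No label gives the numbers a meaning and 1 of the 3 correlations was not above 0.1, so the block was kept as an alternative, and whether the numbers pair the mice is not settled. The median member difference kept its sign in all settings, between 0.39 and 0.68.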

Other observations

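The probe sets of Map3k7 followed different patterns over the 6 arrays. Its 2 probe sets with the next highest means (8.06 and 7.87, against 8.18 for the highest) correlated at r = 0.977 with each other. With the probe set of highest mean, whose lowest value was in KO replicate 1 (7.71), they correlated at -0.54 and -0.58. The probe sets of Peli1, Tab2 and Birc3 correlated within each gene at 0.962, 0.978 and 0.921. The size of the Map3k7 difference, -0.23, therefore rests on 1 of its 5 probe sets. The others differed by -0.10, -0.11, -0.16 and 0.026, all with overlap between genotypes.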
